A study of Mus musculus with 6 samples.

Results

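Motile cilia and ependymal axoneme genes were taken as every gene of the count table whose symbol begins with Cfap, Dnah, Dnai, Spag, Rsph, Tekt or Drc followed by a digit, together with Foxj1, Tmem212 and Ccdc153. This gave 87 of 19251 genes. The rule reads symbols only, but it was chosen with earlier results of these data known. They were followed in the substantia nigra, a midbrain nucleus rich in dopamine neurons, of C57BL/6 mice that all carried rAAV-A53T-aSynuclein, a viral vector bearing a mutant human alpha-synuclein used to model Parkinson's disease. Of the 6 RNA-seq libraries, 3 came from mice under intermittent fasting, with no food for 24 hours on each of 3 days a week over 10 weeks, and 3 from mice fed ad libitum and handled alike. Both diets began 2 weeks after surgery, and the study asked how fasting affects midbrain signalling in this model. Sex, age and the promoter of the vector were not given in the sources used here. Since no label ties a library to an animal of its own, p-values cover only the spread between these samples, which may be technical.

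Motile cilia beat by sliding the paired microtubules of a shaft called the axoneme. Outer and inner dynein arms are the motors, while radial spokes, the nexin-dynein regulatory complex and a central pair of microtubules pass on the signals that order the stroke, and proteins inside the tubules stiffen them. In the brain such cilia cover the ependymal cells that line the ventricles and move cerebrospinal fluid, and Foxj1 is the transcription factor known for switching on their genes. Neurons and some glia carry instead a single immotile primary cilium, which lacks dynein arms and a central pair.

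Factors of the RFX family, partners of Foxj1 in this programme, are known to bind a palindrome named the X-box. The promoter windows of RefSeq (GRCm38.p6), 250 bases before to 50 bases after each start, held 70 promoters for 62 of the members. On both strands, both half-sites of the X-box, spelled GTTNC and GGNAAC with 3 bases of any kind between them, occurred in 7 of these (10.0%), against 264 of all 32851 promoters of the same length (0.804%). The half-site GTTGCC alone, which can lie within the longer one, occurred in 26 member promoters (37.1%, against 12.5% of all promoters). The forkhead core TGTTTAC occurred in 3 (4.29%, against 3.65%). In all, 10 letter strings were counted, so these shares are descriptions chosen from among them. The genes with both half-sites were Cfap20dc, Cfap298, Cfap44, Cfap45, Cfap61, Spag16 and Tekt4. Promoter stretches upstream of the start are printed for 3 members whose RNA was highest in fasting replicates 1 and 3, Spag16, Cfap44 and Cfap45, and for 2 whose RNA differed little between libraries, Cfap298 and Cfap20dc. Capitals mark the X-box. They lie at chr1:69826824-69826923 (+), chr16:44394729-44394798 (+), chr1:172521068-172521129 (+), chr16:90934981-90935080 (-) and chr14:8666336-8666435 (-).
Spag16: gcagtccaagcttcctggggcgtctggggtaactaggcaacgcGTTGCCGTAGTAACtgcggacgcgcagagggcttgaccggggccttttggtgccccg
Cfap44: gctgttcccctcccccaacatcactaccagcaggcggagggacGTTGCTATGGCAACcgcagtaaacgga
Cfap45: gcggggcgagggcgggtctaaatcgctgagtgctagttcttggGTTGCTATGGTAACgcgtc
Cfap298: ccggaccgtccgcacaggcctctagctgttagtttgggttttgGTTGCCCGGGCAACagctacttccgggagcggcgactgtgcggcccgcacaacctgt
Cfap20dc: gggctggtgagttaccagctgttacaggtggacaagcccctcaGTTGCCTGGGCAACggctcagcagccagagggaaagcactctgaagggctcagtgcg
All 5 stretches hold the X-box letters. As printed, 4 of them read in the spelling given, and that of Spag16 matches it on the opposite strand only.

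Estimated counts summed to between 42990234 and 48179706 per library. Levels are given as CPM, a gene's count scaled to a common library size with TMM factors. Calls rest on edgeR's two-sided quasi-likelihood test over all genes, with adjusted p below 0.05. Of 19109 genes tested, 95 were called (0.497%), 0.147% higher and 0.351% lower under fasting. Midbrain dopamine neuron markers were detected in every library, all 10 of them, and differed within both diets: they summed to 823, 1382 and 748 CPM in fasting replicates 1, 2 and 3, and to 839, 832 and 2009 CPM in ad libitum replicates 1, 2 and 3. Pmch, a gene of hypothalamic neurons, stood at 62.2, 125 and 115 CPM under fasting and at 22, 432 and 1.18 CPM ad libitum, so a transcript of a neighbouring region also varied widely. The part of such differences between dissected pieces in the values of the cilia genes was not tested.

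Genes of the motile axoneme lay higher in the fasting group, but mainly in 2 of its 3 libraries. Fasting replicates 1 and 3 held high levels of dynein heavy chains, central pair proteins and the ependymal genes Tmem212 and Ccdc153, and fasting replicate 2 stood nearer to the ad libitum libraries. With that spread 0 of the 83 members tested were called by edgeR, and the smallest adjusted p was 0.0638, for Cfap46. At an unadjusted p below 0.05, 43 members were higher and 1 was lower under fasting, against 8.74% and 11.6% of all genes tested. limma-voom called 0 members too, with 44 at an unadjusted p below 0.05, and it called 0.0890% of all genes higher and 0.0785% lower. DESeq2, which called 7.25% of all genes, 2.84% higher and 4.41% lower, called 30 of 87 members, all higher. In bulk RNA, more cells of a type and more RNA per cell cannot be told apart.

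The log2 fold change, fasting minus ad libitum, was above 0 for 77 members and below 0 for 6, with a median of 0.64, against -0.0050 over all genes tested. Those at least 2-fold higher under fasting numbered 31, and 0 were at least 2-fold lower (1.77% and 1.61% of all genes). The filter on low counts left 4 members untested, Cfap53, Cfap157, Dnai3 and Cfap73. Weak genes can pass that filter through the group where they are high, so these counts are descriptions. For the 67 members with a mean of at least 1 CPM over all libraries the median was 0.57. Over all 87 members, every fasting library lay above every ad libitum library for 37 (42.5%, against 12.5% of all genes), and every fasting library lay below for 1, Dnah8 (1.15%, against 15.0%).

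**Figure D1:**
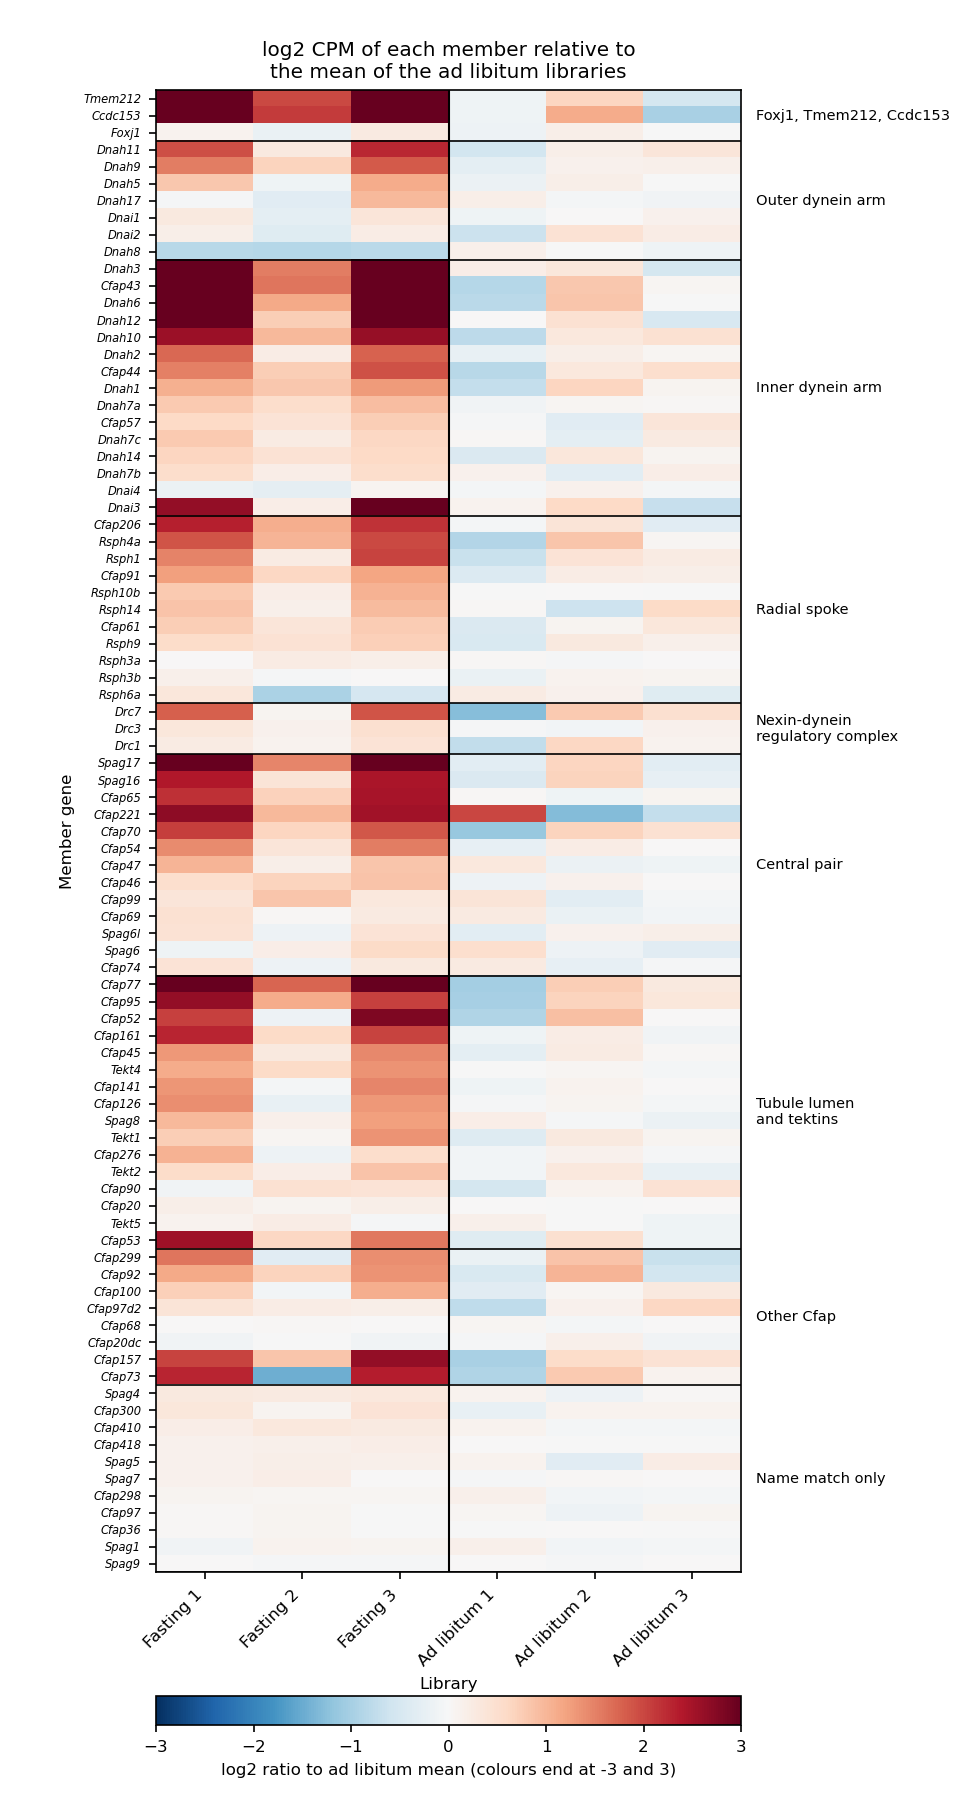
Heat map of log2 CPM relative to the mean of the ad libitum libraries, with 1 row per member, ordered by role, and 1 column per library, fasting left of ad libitum. Red stands for higher and blue for lower. Among the axonemal roles, fasting replicates 1 and 3 are red in most rows while fasting replicate 2 is paler, and the name-match rows at the bottom are near white in all 6 libraries.

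The order of the libraries recurred from gene to gene. Fasting replicates 1 and 3 were the 2 highest of the 6 libraries for 60 of 87 members (69.0%), against 11.7% of all genes, and fasting replicate 2 was the lowest fasting library for 71 (81.6%), against 37.3% of all genes. This ordering was noticed in the data and is a description, and members of 1 library share its tissue, so they are not independent. Among the 68 members with an axonemal or Foxj1 role, the median log2 ratio to the ad libitum mean was 1.03, 0.27 and 1.21 in fasting replicates 1, 2 and 3, and -0.14, 0.17 and 0.02 in ad libitum replicates 1, 2 and 3. Their CPM summed to 423, 297 and 452 under fasting and to 244, 273 and 269 ad libitum, a ratio of group means of 1.49. No fasting sum overlapped the ad libitum sums, although the sum in fasting replicate 2 was much closer to them than to those of the other fasting libraries. The coefficient of variation across replicates had a median of 37.0% under fasting and 24.0% ad libitum over these members.

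Foxj1 (ENSMUSG00000034227), the regulator, was at 14, 11.3 and 15.8 CPM in fasting replicates 1, 2 and 3, and at 11.7, 14.6 and 13 CPM in ad libitum replicates 1, 2 and 3. The groups overlapped, and the log2 fold change was 0.07 (SE 0.14, edgeR adjusted p = 0.826), although within the fasting group replicate 2 was again the lowest. Its direction reversed in 3 alternatives, so none is assigned to it. Tmem212 (ENSMUSG00000043164), a transmembrane protein gene used as an ependymal marker, was at 2.16, 0.324 and 2.24 CPM under fasting and at 0.0423, 0.103 and 0.0214 CPM ad libitum. The ad libitum levels rest on 2, 5 and 1 counts. The fasting libraries were 38.8, 5.82 and 40.2 times the ad libitum mean, without overlap, and the log2 fold change of 4.75 was the largest of any member tested (SE 0.95, edgeR adjusted p = 0.0755). Ccdc153 (ENSMUSG00000070306), an ependymal coiled-coil gene, was at 4.68, 0.855 and 6.78 CPM under fasting and at 0.148, 0.413 and 0.0641 CPM ad libitum. Here too the lowest fasting library exceeded the highest ad libitum library, and the log2 fold change was 4.28 (SE 0.99, edgeR adjusted p = 0.102).

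**Figure D2:**
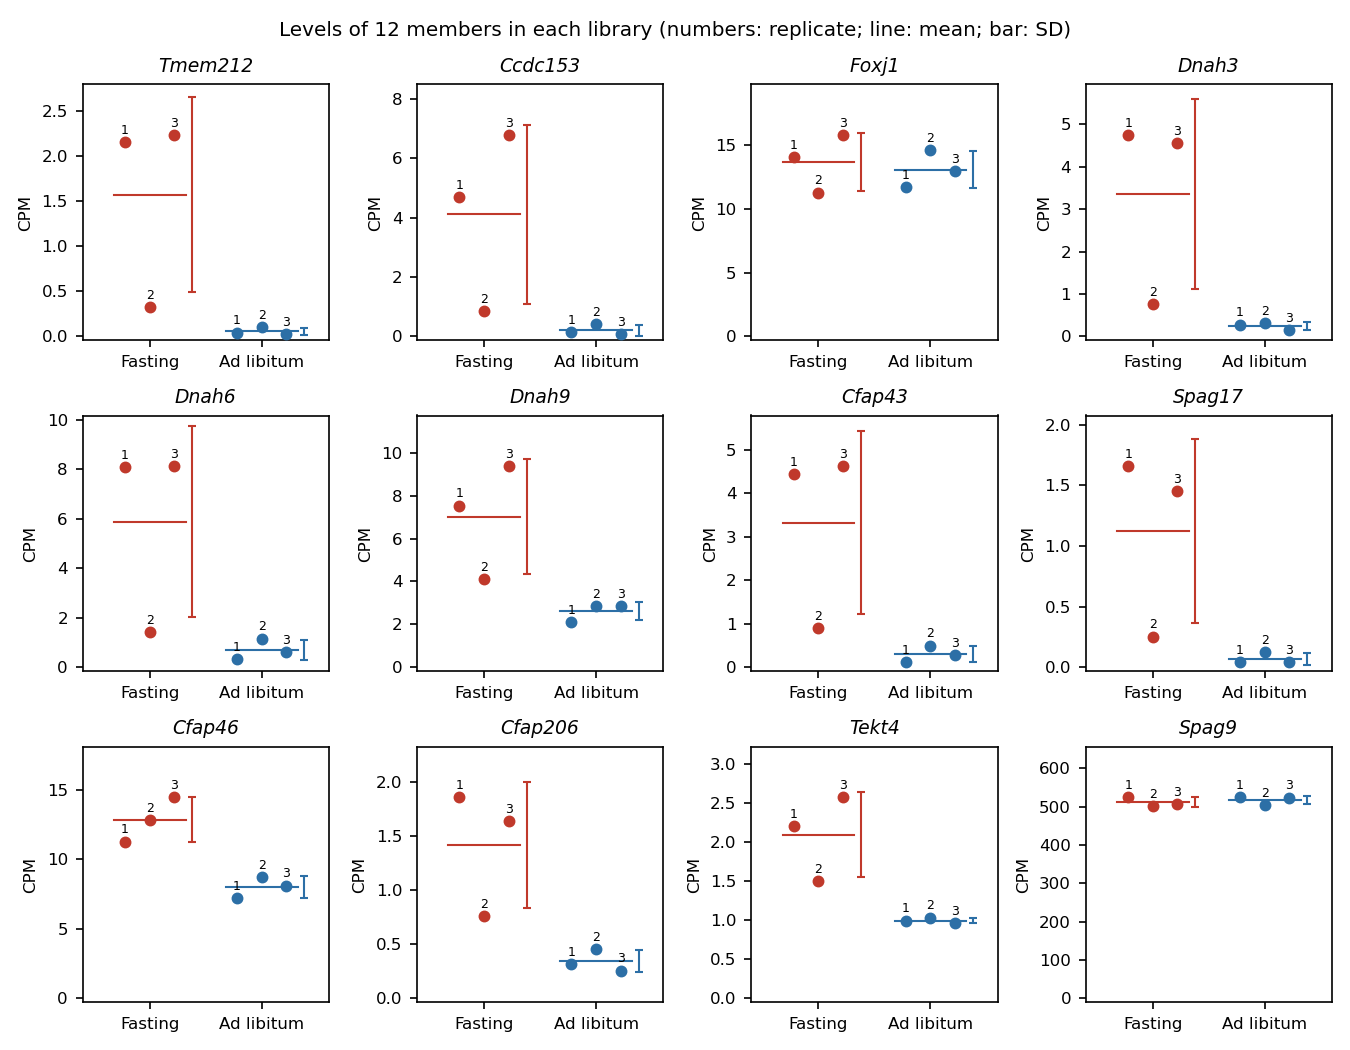
CPM of 12 members in each library. Points are libraries numbered by replicate, the line is the mean and the bar the SD of 3 libraries, with fasting left of ad libitum in each panel. Fasting replicates 1 and 3 stand well above fasting replicate 2 for Tmem212, Ccdc153, Dnah3, Dnah6, Cfap43 and Spag17, whereas Cfap46 separates the diets with little spread and Spag9 does not separate them.

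The inner dynein arms, the motors that shape the bend of the cilium, did not overlap between diets in most of their genes, in some by a narrow margin. Dnah2, outside the rule for named genes, was at 2.40 CPM in fasting replicate 2 and at 2.33 CPM in ad libitum replicate 2. For 12 of 15 measured members (80.0%) every fasting library lay above every ad libitum library, against 12.5% of all genes, and the median log2 fold change over the 14 tested was 1.17. Dnah3 (ENSMUSG00000052273), an inner arm heavy chain, was at 4.75, 0.763 and 4.56 CPM under fasting and at 0.275, 0.310 and 0.150 CPM ad libitum (log2 fold change 3.76, SE 0.78, edgeR adjusted p = 0.0826). Dnah6 (ENSMUSG00000052861), another inner arm heavy chain, was at 8.10, 1.43 and 8.15 CPM under fasting and at 0.339, 1.16 and 0.620 CPM ad libitum (3.06, SE 0.80, edgeR adjusted p = 0.125). In both genes fasting replicate 2 lay far below the other fasting libraries, and in Dnah6 it stood close to ad libitum replicate 2.

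Dnah12 had 4.37, 0.763 and 5.48 CPM under fasting and 0.445, 0.620 and 0.299 CPM ad libitum, with a log2 fold change of 2.95. Cfap43 (ENSMUSG00000044948), which helps to tether an inner arm to the doublet, had 4.43, 0.902 and 4.63 CPM under fasting and 0.127, 0.496 and 0.278 CPM ad libitum, its log2 fold change being 3.45 (SE 0.77, edgeR adjusted p = 0.0950). Its partner Cfap44, named for its promoter, had 9.53, 5.53 and 12.5 CPM under fasting and 1.84, 4.11 and 4.68 CPM ad libitum. These 3 genes repeated the same ranking of the fasting libraries. Dnah1, more abundant, was at 18.7, 15.7 and 21.7 CPM under fasting and at 5.38, 13.9 and 9.49 CPM ad libitum (log2 fold change 0.96, edgeR adjusted p = 0.203), and here ad libitum replicate 2 nearly reached fasting replicate 2.

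The Dnah7 heavy chains share sequence, 54.2% of Dnah7a, 40.0% of Dnah7b and 61.6% of Dnah7c in words of 31 bases, so reads may be split between them and their values are uncertain. Dnah7a was at 2.64, 2.17 and 2.90 CPM under fasting and at 1.4, 1.57 and 1.54 CPM ad libitum, and Dnah7b at 30.6, 24.6 and 30.7 CPM under fasting and at 23.3, 17 and 24.4 CPM ad libitum. Neither of these overlapped between diets, with log2 fold changes of 0.77 (edgeR adjusted p = 0.0798) and 0.41 (0.215). Dnah7c, outside the rule for named genes, was at 4.41, 3.03 and 3.92 CPM under fasting and at 2.58, 2.04 and 3.08 CPM ad libitum, and fasting replicate 2 lay just below ad libitum replicate 3 (log2 fold change 0.56, edgeR adjusted p = 0.200). Dnai4, an intermediate chain of an inner arm, did not follow: it was at 9.82, 9.18 and 11.8 CPM under fasting and at 10.7, 12.1 and 10.6 CPM ad libitum, overlapping, with a log2 fold change of -0.11.

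The outer dynein arms, which supply most of the power of the stroke, were less uniform, with a median log2 fold change of 0.33 over 7 genes. Dnah9 (ENSMUSG00000056752), the outer arm heavy chain of the distal part of the cilium, was at 7.53, 4.12 and 9.38 CPM under fasting and at 2.12, 2.85 and 2.86 CPM ad libitum, without overlap (log2 fold change 1.42, SE 0.31, edgeR adjusted p = 0.0832). Dnah5, the other main outer heavy chain of motile cilia, was at 6.82, 3.54 and 8.40 CPM under fasting and at 3.43, 4.38 and 3.80 CPM ad libitum. Fasting replicate 2 lay within the ad libitum range, and the log2 fold change was 0.69 (edgeR adjusted p = 0.271). The intermediate chain Dnai2 was at 4.39, 3.03 and 4.54 CPM under fasting and at 2.46, 5.29 and 4.53 CPM ad libitum, with overlapping groups and a log2 fold change of -0.04.

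Dnah8 (ENSMUSG00000033826), an outer arm heavy chain best known from sperm, ran the other way. It was at 0.591, 0.578 and 0.597 CPM under fasting and at 1.21, 1.07 and 0.983 CPM ad libitum. These rest on 26, 25 and 28 counts under fasting and on 57, 52 and 46 ad libitum. All 3 fasting libraries lay below the ad libitum ones, and at such counts counting error limits what their close agreement can mean. Its log2 fold change was -0.88 (SE 0.20, edgeR adjusted p = 0.0819). In GENCODE M21, 33 members overlap another gene on the opposite strand, among them Dnah8, Dnah1, Dnah3, Dnah6 and Dnah9. Whether counting used strand was not given in the sources used here, so reads of such overlapping genes may be mixed with theirs.

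Radial spokes, which reach from the doublets toward the central pair, had a median log2 fold change of 0.69, and 6 of 11 genes (54.5%, against 12.5% of all genes) showed no overlap with the fasting libraries higher. Cfap206 (ENSMUSG00000028294), a protein at the base of a spoke, was at 1.86, 0.763 and 1.64 CPM under fasting and at 0.318, 0.454 and 0.256 CPM ad libitum (log2 fold change 2.04, SE 0.40, edgeR adjusted p = 0.0698). Cfap91, also of the spoke base, was at 3.62, 2.36 and 3.52 CPM under fasting and at 1.14, 1.80 and 1.73 CPM ad libitum, 1.02 on the same scale (edgeR adjusted p = 0.0960). In both, fasting replicate 2 lay between the other fasting libraries and the ad libitum ones. The stalk genes Rsph3a and Rsph3b share 59.4% and 68.5% of their sequence, so their split is uncertain, and their log2 fold changes were 0.15 and 0.04, with Rsph3a at 13.4, 15.9 and 14.9 CPM under fasting and at 13.5, 12.9 and 13.4 CPM ad libitum.

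Of the nexin-dynein regulatory complex, the elastic link between doublets, 3 subunits carried a symbol of the pattern. Drc7 was at 3.00, 0.879 and 3.20 CPM under fasting and at 0.318, 1.47 and 1.18 CPM ad libitum, so that fasting replicate 2 lay within the ad libitum range (log2 fold change 1.26, SE 0.67, edgeR adjusted p = 0.358). Drc3 was at 9.87, 8.58 and 11.0 CPM under fasting and at 7.62, 7.37 and 8.55 CPM ad libitum, a narrow separation with a log2 fold change of 0.32. Drc1 was at 6.53, 5.87 and 7.27 CPM under fasting and at 3.28, 8.53 and 5.92 CPM ad libitum, and the groups overlapped.

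The central pair, which sets the plane of the beat, had a median log2 fold change of 0.71 over 13 genes, all 13 above 0, and 4 (30.8%, against 12.5% of all genes) showed no overlap with the fasting libraries higher. Cfap46 (ENSMUSG00000049571), of the C1 tubule, was at 11.3, 12.8 and 14.5 CPM under fasting and at 7.18, 8.71 and 8.10 CPM ad libitum. It was the member with the smallest p, the log2 fold change being 0.68 (SE 0.12, edgeR adjusted p = 0.0638), and it did not share the low value of fasting replicate 2. Spag17 (ENSMUSG00000027867), also of the C1 tubule, was at 1.66, 0.254 and 1.45 CPM under fasting and at 0.0423, 0.124 and 0.0427 CPM ad libitum, where it had 2, 6 and 2 counts (log2 fold change 3.95, SE 0.85, edgeR adjusted p = 0.0819). Spag17 is also among the genes with an overlap on the opposite strand.

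Spag16, whose promoter is printed above, was at 2.39, 0.555 and 2.43 CPM under fasting and at 0.296, 0.681 and 0.342 CPM ad libitum, so fasting replicate 2 lay below ad libitum replicate 2. The most abundant central pair genes by CPM overlapped between diets. Cfap69 was at 22.7, 17 and 19.9 CPM under fasting and at 19.96, 14.6 and 15.8 CPM ad libitum, and Cfap74 at 18.3, 12.3 and 16.9 CPM under fasting and at 16.6, 11.5 and 13.5 CPM ad libitum. Their log2 fold changes were 0.24 and 0.19.

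Proteins of the tubule lumen and tektins, the filaments that brace the doublet from inside, had a median log2 fold change of 1.02 over 15 genes tested, and 7 of 16 (43.8%, against 12.5% of all genes) showed no overlap with the fasting libraries higher. Cfap77 was at 0.887, 0.254 and 0.725 CPM under fasting and at 0, 0.103 and 0.0641 CPM ad libitum, from 39, 11 and 34 counts against 0, 5 and 3 (log2 fold change 3.41, SE 0.79, edgeR adjusted p = 0.0888). Tekt4 (ENSMUSG00000024175) was at 2.21, 1.5 and 2.58 CPM under fasting and at 0.995, 1.03 and 0.962 CPM ad libitum (1.07, SE 0.23, edgeR adjusted p = 0.0798). The ad libitum values of Tekt4 were almost equal, while fasting replicate 2 lay midway. Cfap45, a lumen protein shown for its promoter, was at 3.34, 1.62 and 3.65 CPM under fasting and at 1.08, 1.59 and 1.35 CPM ad libitum.

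The most abundant genes of this role differed little between libraries. Cfap20, which also sits on the tubules of primary cilia, averaged 29.1 ± 1.14 CPM under fasting and 26.3 ± 0.292 CPM ad libitum (SD, n = 3 each), and Tekt5, best known from sperm, averaged 16.5 ± 1.35 CPM under fasting and 15.4 ± 1.48 CPM ad libitum. Cfap20 did not overlap between diets although its log2 fold change was 0.15 (edgeR adjusted p = 0.206), and Tekt5 overlapped. Among 8 further Cfap members outside these roles, Cfap68 averaged 22.7 ± 0.202 CPM under fasting and 22.4 ± 0.928 CPM ad libitum. Cfap20dc, the last promoter printed, averaged 9.55 ± 0.343 CPM under fasting and 10.1 ± 0.985 CPM ad libitum.

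The symbol pattern also caught 11 genes whose products are not parts of the motile axoneme or are not known to be. Spag9 (ENSMUSG00000020859), a scaffold of JNK signalling and transport named as a sperm antigen, was at 526, 501 and 508 CPM under fasting and at 525, 505 and 524 CPM ad libitum, overlapping (log2 fold change -0.02, SE 0.05, edgeR adjusted p = 0.883). Cfap36 averaged 74.3 ± 2.48 CPM under fasting and 72.4 ± 0.129 CPM ad libitum, and Cfap97 averaged 39.99 ± 1.39 CPM under fasting and 39 ± 3.61 CPM ad libitum. Spag7 averaged 34.3 ± 2.06 CPM under fasting and 31.7 ± 0.737 CPM ad libitum. For these 11 genes the median log2 fold change was 0.11, and fasting replicates 1 and 3 were the 2 highest libraries for 2 of them (18.2%).

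For 3 of the 11 (27.3%, against 12.5% of all genes) every fasting library lay above every ad libitum library, by a small step. Cfap410, a protein of the base of the primary cilium, was at 27.7, 30.1 and 28.8 CPM under fasting and at 25.7, 23.2 and 23.3 CPM ad libitum (log2 fold change 0.26, SE 0.07, edgeR adjusted p = 0.103). Cfap418, known from the photoreceptor, was at 34.3, 35 and 36.2 CPM under fasting and at 31.7, 31.4 and 31.2 CPM ad libitum (0.16, SE 0.05, edgeR adjusted p = 0.146). Spag4, outside the rule for named genes, was at 5.80, 5.69 and 5.93 CPM under fasting and at 5.06, 4.25 and 4.87 CPM ad libitum (0.30, SE 0.11, edgeR adjusted p = 0.201). Cfap298, which acts in dynein assembly in the cytoplasm, overlapped between diets. It averaged 15.4 ± 0.172 CPM under fasting and 14.7 ± 1.36 CPM ad libitum. In these genes fasting replicate 2 did not stand apart from the other fasting libraries.

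**Figure D3:**
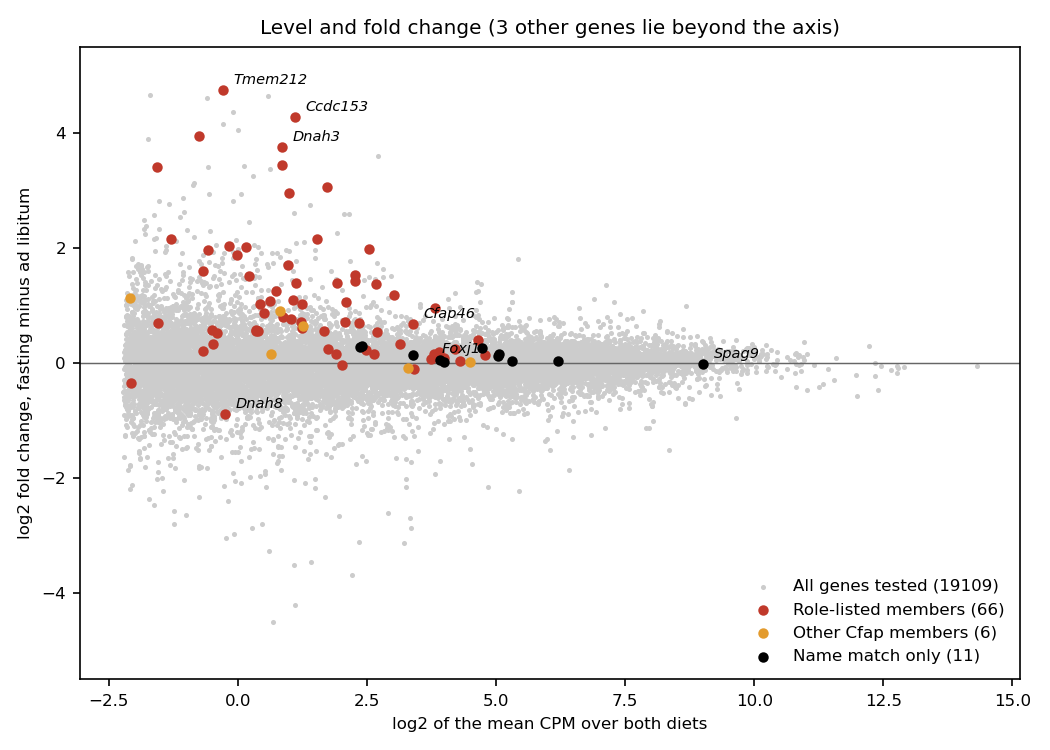
Log2 fold change, fasting minus ad libitum, against log2 mean CPM for the 83 members tested over all 19109 genes tested in grey. Axonemal members with high fold changes lie at low levels, with Tmem212 and Ccdc153 the highest and Dnah3 also named, while name-match members such as Spag9 lie near 0 at higher levels.

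Members differed in level as well as in fold. Per kilobase of their longest transcript in GENCODE M21, which held 86 of the 87 members, the highest mean levels belonged to Spag9 (70.1 CPM per kb), Cfap36 (44.1) and Spag7 (28.4), all name matches. Tekt5 was at 8.84, Foxj1 at 5.10, Ccdc153 at 1.99, Tmem212 at 1.14 and Dnah3 at 0.147 CPM per kb, and the median member was at 0.923 CPM per kb. Dnah3 was thus far below the median member on this scale. Spag9 held so much of the total that the sum over all 87 members was 1253, 1110 and 1265 CPM under fasting and 1061, 1057 and 1080 CPM ad libitum, a ratio of 1.13.

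Other motile cilia genes, outside the symbol pattern, gave the same order of libraries in most cases. Of 84 listed, 70 were measured and 68 tested, 0 were called, 62 had a log2 fold change above 0 and the median was 0.44. Fasting replicates 1 and 3 were the 2 highest libraries for 42 of the 70 (60.0%), and every fasting library lay above every ad libitum one for 30 (42.9%, against 12.5% of all genes). Hydin, a large central pair protein, was at 7.48, 3.51 and 7.78 CPM under fasting and at 0.910, 1.22 and 1.80 CPM ad libitum, without overlap (log2 fold change 2.26, SE 0.39, edgeR adjusted p = 0.0640). The outer arm light chain Dnal1 averaged 90.4 ± 4.71 CPM under fasting and 78.7 ± 1.82 CPM ad libitum.

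Regulators of multiciliation as a list were near 0, with a median log2 fold change of -0.0044 over 18 genes and 0 called. Deup1, a scaffold for making many centrioles, was at 2.11, 1.66 and 2.69 CPM under fasting and at 0.974, 0.867 and 1.30 CPM ad libitum (log2 fold change 1.04, SE 0.25, edgeR adjusted p = 0.0950). Myb, a transcription factor of the early programme, was at 1.84, 0.948 and 1.88 CPM under fasting and at 0.889, 0.413 and 0.684 CPM ad libitum (1.23, edgeR adjusted p = 0.138). In both, the lowest fasting library stood above the highest ad libitum library. That held for 3 of the 18 in all (16.7%, against 12.5% of all genes), and 0 showed the reverse (against 15.0%). The log2 fold change was above 0 for 9 of the 18 and below 0 for 9. Among RFX factors, outside the rule for named genes, it was 0.02 for Rfx1, -0.46 for Rfx2, -0.18 for Rfx3 and -0.21 for Rfx4. Cep63, a centriole protein of cells in general, averaged 22.7 ± 1.30 CPM under fasting and 25.9 ± 2.53 CPM ad libitum.

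Primary cilium and transport genes, which neurons and some glia share, gave a median log2 fold change of 0.03 over 52 genes, with 0 called. At an unadjusted p below 0.05, 12 were higher and 2 lower under fasting, against 8.74% and 11.6% of all genes. Every fasting library lay above every ad libitum library for 13 (25%, against 12.5% of all genes) and below for 4 (7.69%, against 15.0%). Fasting replicates 1 and 3 were the 2 highest libraries for 10 of them (19.2%). Their CPM summed to 1491, 1506 and 1533 under fasting and to 1474, 1437 and 1467 ad libitum. Single genes differed more, with log2 fold changes from -0.23 to 0.45. The largest was that of Kif17, at 20.3, 18.3 and 21.3 CPM under fasting and at 14.1, 18.0 and 11.7 CPM ad libitum, without overlap. Kif3a, a motor subunit of transport into the cilium, averaged 156 ± 5.44 CPM under fasting and 154 ± 4.62 CPM ad libitum. Ift81, a subunit of the transport trains, averaged 34.1 ± 0.912 CPM under fasting and 28.4 ± 1.06 CPM ad libitum (log2 fold change 0.26, edgeR adjusted p = 0.0755), and Ift80, of the same trains, averaged 33.0 ± 0.856 CPM under fasting and 38.1 ± 0.618 CPM ad libitum (-0.21, edgeR adjusted p = 0.0943). Neither Ift81 nor Ift80 overlapped between diets, and their directions were opposite.

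Markers of ependymal cells beyond the axoneme largely shared the order of the fasting libraries, but not one direction between diets. Of 11 measured, 8 had a log2 fold change above 0 and 0 were called, with a median of 0.76. Of the 11, 4 also stand on the motile cilia list, Dynlrb2 (1.51), Fam183b (1.44), Pifo (2.18) and Tppp3 (0.25). The median of 0.76 includes these 4, so it does not describe markers apart from motile cilia. The others, in descending order with Cd24a in the middle, were Mia (1.64), Calml4 (0.95), Rarres2 (0.76), Cd24a (0.10), Hdc (-0.10), S100a6 (-0.40) and Ecrg4 (-2.09). None of the 11 was at 0 in any library. Fasting replicate 2 was the lowest fasting library for 8 of the 11 (72.7%, against 37.3% of all genes). The median log2 ratio to the ad libitum mean was 0.95, 0.20 and 1.05 in fasting replicates 1, 2 and 3, and -0.94, 0.42 and 0.10 in ad libitum replicates 1, 2 and 3. The list summed to 100.2, 111 and 114 CPM under fasting and to 65.6, 126 and 89.4 CPM ad libitum, sums that Tppp3 dominates. Among genes chosen after their values were seen, the chemokine-like gene Rarres2 was at 7.34, 4.35 and 7.83 CPM under fasting and at 3.09, 4.94 and 3.51 CPM ad libitum, and Calml4 was at 1.34, 0.162 and 1.24 CPM under fasting and at 0.148, 0.950 and 0.321 CPM ad libitum. In both, fasting replicate 2 was low and ad libitum replicate 2 the highest of its diet. Hdc, Tppp3 and Ecrg4 were instead lowest in fasting replicate 1 among the fasting libraries. Of these, Hdc was at 6.12, 17.5 and 10.1 CPM under fasting and at 0.804, 29.8 and 5.51 CPM ad libitum. Replicate 2 was thus its highest library in each diet, as it was for the hypothalamic gene Pmch. Whether the Hdc RNA came from ependymal cells was not tested. Fam183b, one of the shared genes, was at 2.87, 2.52 and 3.69 CPM under fasting and at 0.508, 1.45 and 1.39 CPM ad libitum (1.44, edgeR adjusted p = 0.113). Tppp3, a tubule-bundling protein also on both lists, averaged 70.7 ± 5.47 CPM under fasting and 59.5 ± 12.6 CPM ad libitum. Ecrg4, which the choroid plexus expresses as well, was lower in all fasting libraries, at 0.341, 0.347 and 0.490 CPM, against 0.656, 1.61 and 2.80 CPM ad libitum (log2 fold change -2.09, edgeR adjusted p = 0.108).

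The choroid plexus, a ventricular tissue continuous with the ependyma, had 15 markers with a median log2 fold change of -0.53. Their median log2 ratio to the ad libitum mean was -0.34, -0.44 and -0.27 in fasting replicates 1, 2 and 3, and -0.80, 0.78 and 0.10 in ad libitum replicates 1, 2 and 3. Within each diet this is the order of the axonemal medians, while gene by gene fasting replicate 2 was the lowest fasting library for 7 of 15 (46.7%, against 37.3% of all genes), and 12 of 15 had a log2 fold change below 0. None was at 0 in any library, and they summed to 73.6, 57.9 and 70.2 CPM under fasting and to 48.5, 143 and 75.1 CPM ad libitum. By these sums fasting replicate 1 stood above fasting replicate 3, unlike by the medians. Ttr, its most typical transcript, was at 17.1, 4 and 14.2 CPM under fasting and at 9.93, 73.1 and 16.7 CPM ad libitum. Ad libitum replicate 2, the highest for Ttr, was also the highest ad libitum library for 48 of the 87 members (55.2%, against 35.5% of all genes). The dopamine neuron sum took the opposite order within the fasting group, highest in replicate 2. How ventricular lining or neighbouring tissue in the dissected pieces bears on the cilia genes was not tested.

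**Figure D4:**
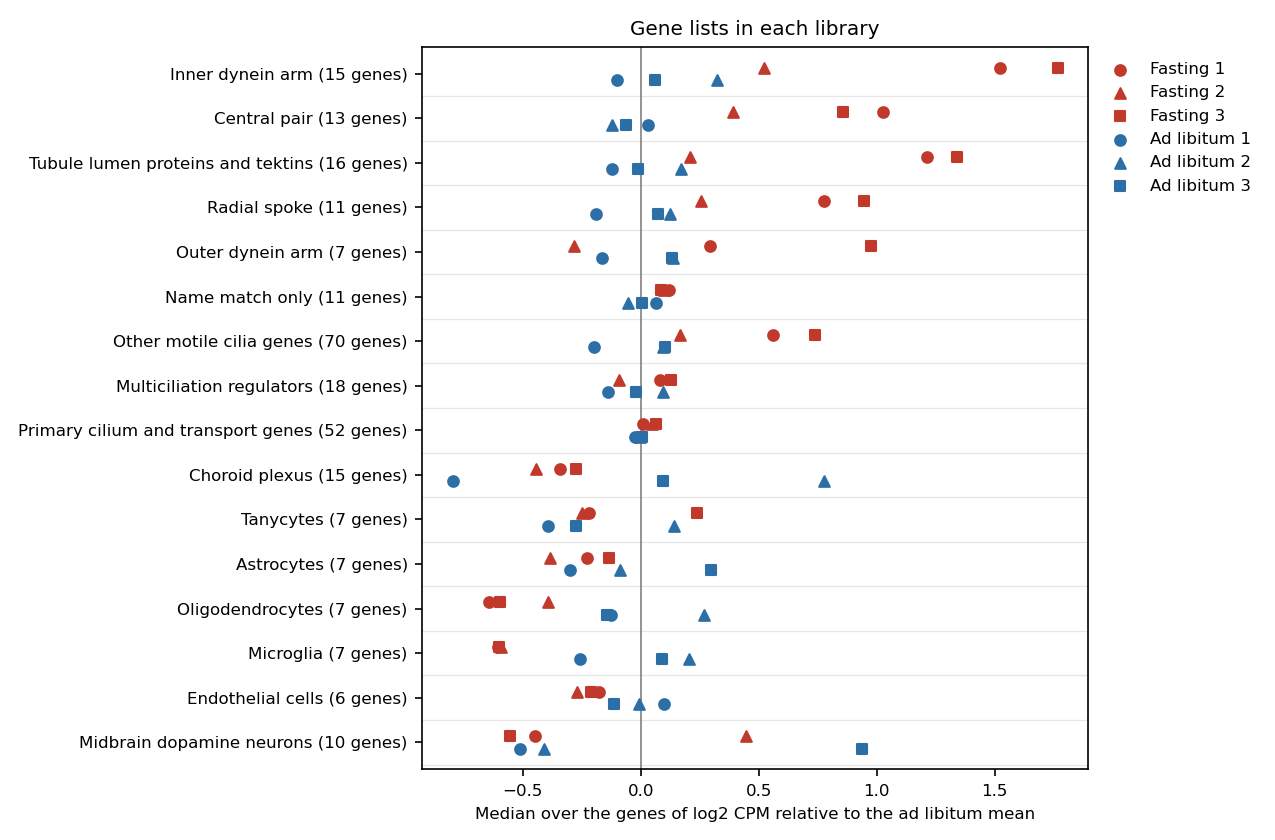
Median over each gene list of log2 CPM relative to the ad libitum mean, 1 symbol per library, with fasting in red above ad libitum in blue. Axonemal roles place fasting replicates 1 and 3 to the right, inner dynein arm genes farthest at 1.52 and 1.77, while name matches and primary cilium genes stay near 0 and dopamine neuron markers place fasting replicate 2 and ad libitum replicate 3 to the right.

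Leaving out single libraries showed how far the values rest on them. Without fasting replicate 2, edgeR called 10 members, all higher (0.234% of all genes were called higher in that fit), and the members' median log2 fold change was 0.91. Without fasting replicate 1 or 3 it called 0, as it did over all genes. With both of those left out, an alternative added after the data were seen, the median was 0.19 and 0 members were called, with 6 at an unadjusted p below 0.05. Without ad libitum replicate 1 it called 3 of 87 members, Cfap46, Cfap410 and the central pair gene Cfap221. In that fit 1187 of all 19207 genes tested were called (6.18%). Cfap221 had 57, 16 and 54 counts under fasting and 38, 2 and 4 counts ad libitum.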

How the data were processed

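Polyadenylated RNA of substantia nigra tissue was sequenced in 3 fasting and 3 ad libitum libraries, made with a directional kit per the labels' protocols. Estimated counts for 19251 genes, all whole numbers, are what the authors deposited. The submitters' processing notes name Salmon, DESeq2 1.40.2 and the build GRCm39 (mm39), without roles or order. The Salmon version, the annotation, the use of strand and the rounding were not given in the sources used here.

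Columns were assigned to libraries by name. Libraries within a group differed beyond counting noise (smallest chi-square per degree of freedom 8.28), so all 6 counted as samples. The deposited estimated counts were filtered with filterByExpr, scaled by TMM and tested with edgeR 4.0.16 under R 4.3.3 (quasi-likelihood, robust, two-sided, Benjamini-Hochberg over 19109 genes, 142 not tested, called below 0.05). SE is log2 fold change over root F. Log2 CPM and ratios used a prior count of 2. The scripts were checked on simulated data. An exact permutation of 3 against 3 libraries cannot give a p below 0.1.

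DESeq2 1.42.0 without that filter, limma-voom (limma 3.58.1), other scalings and filters, no robust shrinkage, a replicate block and leaving out libraries were tried.

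Members and lists were chosen with earlier results of these data known. Named genes were Foxj1, Tmem212 and Ccdc153, any called member, the 2 most abundant and the 2 of smallest p per role, the 5 largest rises and falls at a mean of at least 1 CPM, and for other lists those of smallest p and highest level, some of which are not reported here. Spag16, Cfap44, Cfap45, Cfap61 and Cfap298 were added for their promoters, Cfap221 for its call without a library, and the untested members. GENCODE M21 (GRCm38) is another build than that of the files, and gave only lengths, overlapping genes and the share of 31-base words found in other genes.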

Additional observations from a re-analysis of the deposited data

How the results depend on the processing

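DESeq2 called 1395 genes and 30 members, limma-voom 32 genes, library totals alone 10 and edgeR without robust shrinkage 9, while members called stayed at 0 in the last 3. The replicate block gave 285 genes and 1 member, Cfap46 (edgeR adjusted p = 0.0465), but libraries of the same number share only that number: their deviations correlated at 0.206, -0.0386 and -0.107, and not every library correlated best with its own number. Leaving out each library gave 0 to 1187 genes, 0 to 10 members, a median log2 fold change of 0.53 to 0.91 and a summed ratio of 1.10 to 1.18. Without fasting replicates 1 and 3, added after the data were seen, these were 0 genes (854 at an unadjusted p below 0.05), 0 members, 0.19 and 1.04, with the lone fasting library assumed to vary like the others. That setting also turned the direction of Foxj1 (-0.219), Cfap74 (-0.173), Dnah5 (-0.133), Drc7 (-0.170), Drc1 (-0.0124), Rsph3b (-0.0381), Slc1a3 (-0.0862), Slc6a3 (0.0820), Calml4 (-1.54) and Oxt (-2.60). Leaving out 1 library, log2 fold changes crossed 0 for Foxj1 (-0.0535 to 0.190), Rsph3b (-0.0467 to 0.0958), Dnai2 (-0.300 to 0.186), Drc1 (-0.141 to 0.507), Cfap68 (-0.0168 to 0.0485), Cfap97 (-0.0430 to 0.0834), Kif3a (-0.00936 to 0.0383), Slc1a3 (-0.0188 to 0.386), Slc6a3 (-0.917 to 0.141), Hcrt (-2.01 to 4.18) and Pmch (-1.17 to 3.11). limma-voom turned Dnai2 (0.0152), Hcrt (2.07) and Pmch (2.08), and the replicate block turned Dnai2 (0.00745), Hcrt (0.944) and Pmch (1.61). No gene whose direction turned was called in the setting that turned it, and the cause was not tested. Tmem212, Spag17 and Cfap77 had few ad libitum counts, so counting error limits their ratios. Ad libitum counts were also low for Ccdc153 (7, 20 and 3), Dnah3 (13, 15 and 7) and Cfap43 (6, 24 and 13).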

Other observations

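Markers of other cells differed in how they ordered the fasting libraries. The 7 microglia markers summed to 261, 265 and 267 CPM in fasting replicates 1, 2 and 3, and to 330, 453 and 420 CPM in ad libitum replicates 1, 2 and 3. All 7 were lower in every fasting library than in any ad libitum library (15.0% of all genes were), and 1 was called, C1qa (edgeR adjusted p = 0.0403). The same non-overlap held for all 7 oligodendrocyte markers, with 1 called lower, Ugt8a (edgeR adjusted p = 0.0422), and their sum was highest in replicate 2 among the fasting libraries. Astrocyte markers summed to 1276, 1186 and 1295 CPM under fasting and to 1247, 1773 and 2165 CPM ad libitum, and endothelial markers to 197, 187 and 202 CPM under fasting and to 226, 214 and 195 CPM ad libitum. In both of these lists replicate 2 was the lowest fasting library, as for the axoneme genes but by a smaller margin, and 0 genes were called.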
